A study of Rattus norvegicus with 9 samples.

Results

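The adhesion molecules that endothelial cells use to catch leukocytes were followed in the superior mesenteric artery (SMA) of the rat. The members are 7 genes, taken by their symbols from a table of 37203 gene symbols: the selectins Sele and Selp, the immunoglobulin adhesion molecules Icam1, Icam2 and Vcam1, and the junctional adhesion molecules F11r and Jam2. All 7 passed the filter on low counts, as did 15482 genes in all. Sprague-Dawley rats aged 8 weeks gave the arteries: 3 normal rats, 3 sampled 1 h into ischemia and 3 sampled 4 h into it. Ischemia was whole-body blood loss through a femoral artery catheter under sodium pentobarbital. The labels do not say whether normal rats were anaesthetized or operated on, so blood loss, surgery and anaesthesia cannot be told apart.

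Leukocytes leave the blood in steps. Selectins on the endothelium bind sugar-bearing ligands on passing leukocytes and let them roll. Icam1, Icam2 and Vcam1 then bind leukocyte integrins and hold the cells firmly, and junction proteins such as JAM-A, the product of F11r, and JAM-B, the product of Jam2, take part as leukocytes cross the wall. P-selectin (Selp) is stored in Weibel-Palade bodies of endothelial cells and in platelet granules. E-selectin (Sele), Icam1 and Vcam1 are classic genes switched on by inflammatory cytokines through NF-kB. Icam2, F11r and Jam2 are made by resting endothelium.

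Total counts per library lay between 13114273 and 15504240. Levels are given in CPM, counts relative to a library size scaled by the TMM method, and 1 CPM stood for 12.1 to 17.9 counts in a library. They were not divided by transcript length, so levels are compared between rats and not between genes. The 13 endothelium markers were all in the table, with summed levels of 869 to 2081 CPM in normal rats, 862 to 1235 CPM at 1 h and 682 to 1075 CPM at 4 h. Of the 12 that were tested, 4 were lower at an unadjusted p under 0.05 in edgeR at each stage. Of all genes, 8.67% were lower at that level at 1 h and 7.35% at 4 h. The median log2 fold change of the 12 was -0.49 at 1 h and -0.58 at 4 h. They did not move alike. Mean levels in normal, 1 h and 4 h rats were 62.8, 8.85 and 6.18 CPM for Sox18 and 60.9, 59.4 and 74.5 CPM for Cldn5. Endothelial RNA was therefore measured in every library, and so was smooth muscle RNA (8 markers with summed levels of 11225 to 68683 CPM). Tissue makeup differed between rats of the same group. The 15 nerve markers had summed levels of 7851 CPM in replicate 1 and 8080 CPM in replicate 3 of the 1 h group and of 7924 CPM in replicate 3 of the 4 h group, against 68.7 to 2319 CPM in the other 6 libraries.

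Next, the members were compared between groups, and they separated into genes that were higher in ischemic arteries and genes that were not. At 1 h, Sele, Selp, Icam1 and Vcam1 were higher in all 3 ischemic rats than in all 3 normal rats, by between 7.27-fold and 17.5-fold. Icam2, F11r and Jam2 overlapped the normal rats at 1 h and at 4 h. After 4 h only Icam1 and Vcam1 among the members were still above every normal rat. The plot of CPM by rat shows these levels.

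**Figure D1:**
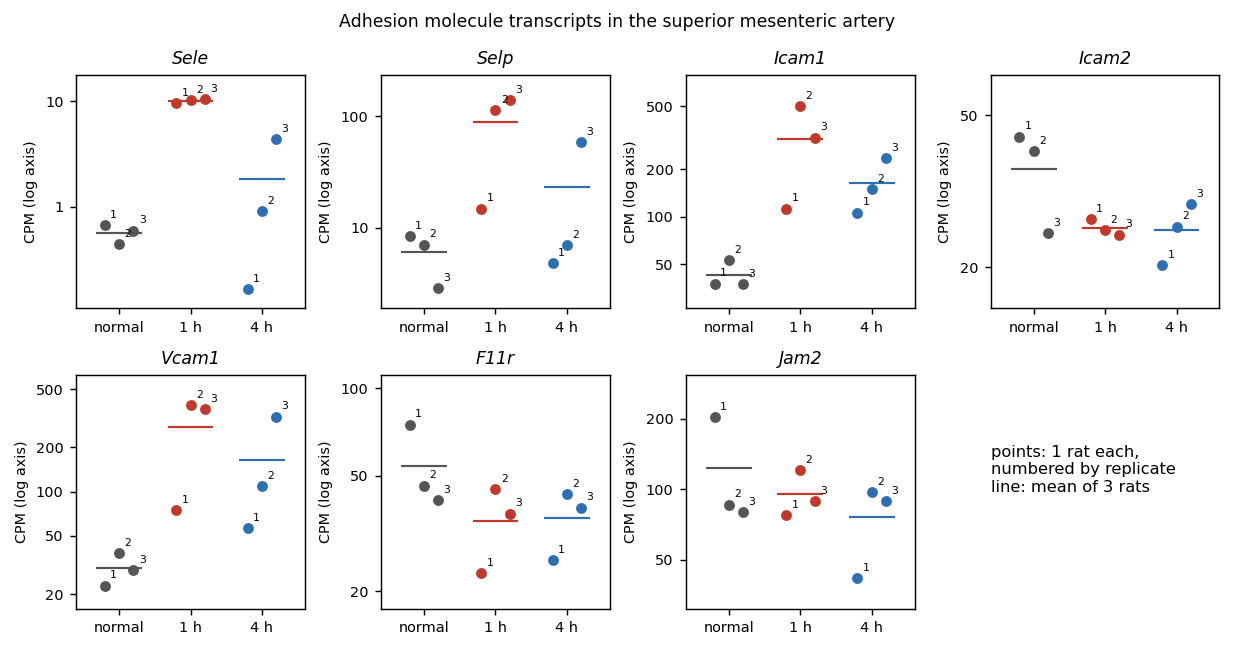
CPM on a log axis for each of the 7 genes, with 1 point per rat (numbered by replicate) and a line at the mean of 3 rats. At 1 h the points of Sele, Selp, Icam1 and Vcam1 lie above all normal points, while at 4 h replicate 3 stands above the other rats in these 4 genes.

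Formally, 0 of the 7 members were called at 1 h by edgeR's quasi-likelihood test, at an adjusted p under 0.05 and a fold change over 1.5. Calls were rare in this comparison, with 0.0581% of all genes tested. At an unadjusted p under 0.05, 4 of 7 members were higher at 1 h, where 7.98% of all genes were higher at that level. The same 4 had groups that did not overlap, against 12.8% of all genes in that direction. The median log2 fold change of the 7 members was 2.86, beside -0.0076 over all genes tested. DESeq2, run as an alternative, called 4 members at 1 h and 4.53% of all genes it tested. In the plot of fitted differences the intervals of these 4 genes at 1 h lie to the right of 0.

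**Figure D2:**
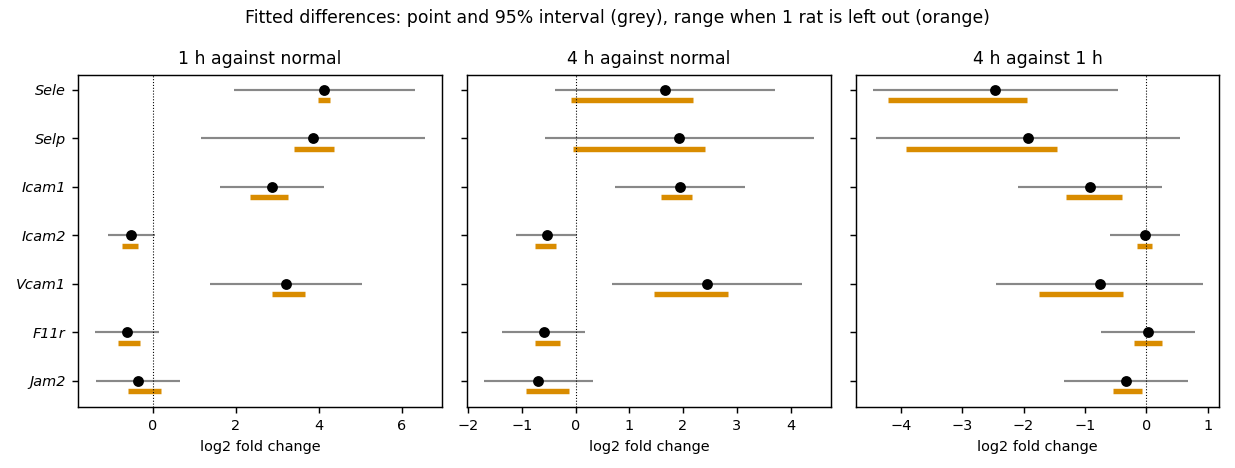
Fitted log2 fold changes of the 7 genes in the 3 comparisons (point) with their 95% intervals (grey) and the range over 9 fits that each left out 1 rat (orange). At 1 h Sele, Selp, Icam1 and Vcam1 stay above 0 in each of the 9 fits, while at 4 h Sele and Selp reach -0.079 and -0.054.

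Among the selectins, Sele, which lets leukocytes roll on inflamed endothelium, had the largest fold of the members at 1 h. It was at 0.672, 0.438 and 0.591 CPM in normal replicates 1 to 3, at 9.57, 10.3 and 10.4 CPM at 1 h, and at 0.165, 0.912 and 4.36 CPM at 4 h. The 3 values at 1 h lay close together and far above the normal rats, whereas those at 4 h spread from below to above them. These are small numbers of reads: 6 to 12 counts per normal library, 143 to 170 at 1 h, and 2, 11 and 66 at 4 h. The log2 fold change at 1 h was 4.13 (SE 0.95, unadjusted p = 0.00229, adjusted p = 0.188 in edgeR). With the nerve markers as a covariate it was 2.96 (adjusted p = 0.272).

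Sele was also the member with the smallest p between the stages. At 4 h all 3 rats were below all 3 rats at 1 h, with a log2 fold change of -2.46 (SE 0.87, 95% interval -4.46 to -0.46). The unadjusted p was 0.0218 and the adjusted p was 0.856 in edgeR. Of the 7 members, 0 were called between 4 h and 1 h, where 0% of all genes were called by edgeR and by DESeq2. In edgeR only Sele was lower at an unadjusted p under 0.05, against 1.25% of all genes. It was also the only member without overlap, against 3.04% of all genes in that direction. The gap was wider without replicate 3 at 4 h (log2 fold change -4.21, adjusted p = 0.134). Against normal rats the value at 4 h was 1.67 (SE 0.89, adjusted p = 0.485), and without replicate 3 at 4 h it was -0.079.

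Selp, the gene of P-selectin, varied much more between rats at 1 h. It was at 8.45, 7.08 and 2.88 CPM in normal rats, at 14.9, 114 and 140 CPM at 1 h, and at 4.88, 6.96 and 58.6 CPM at 4 h. Replicate 1 at 1 h was only a little above the normal rats, and replicates 1 and 2 at 4 h were within their range. The log2 fold change was 3.86 at 1 h (SE 1.18, unadjusted p = 0.0105, adjusted p = 0.232 in edgeR) and 1.93 at 4 h (SE 1.09, adjusted p = 0.508). With the nerve markers as a covariate the value at 1 h was 2.74 (adjusted p = 0.507). Of the 1 h rats, replicate 3 was the highest in both nerve markers and Selp, while replicate 1 had 7851 CPM of nerve markers with Selp at 14.9 CPM and replicate 2 had 1727 CPM with Selp at 114 CPM. Of the 4 h rats, nerve markers (200, 960 and 7924 CPM) and Selp stood in the same order, and so did Sele, Icam1 and Vcam1. At 1 h replicate 2, the lowest of that group in nerve markers, was the highest in Icam1 and Vcam1. With that covariate, 4 of the 7 members had an unadjusted p under 0.05 in edgeR at 1 h, against 9.86% of all genes. At 4 h 2 members did, against 16% of all genes. Beyond the covariate, the part of nerve content in the values of Selp, Sele, Icam1 and Vcam1 was not tested. Leaving out replicate 3 at 4 h brought the value of Selp at that stage to -0.054.

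Platelets also carry P-selectin, so their markers were examined beside it. The 9 platelet markers summed to 104 CPM in replicate 2 at 4 h, where Pf4, a platelet chemokine, was at 40.2 CPM and Itga2b, a platelet integrin subunit, at 29.9 CPM. In the other 8 libraries the sum was at most 17.1 CPM. Selp was at 6.96 CPM in the library with most platelet RNA, and in the 3 libraries with the most Selp the platelet sum was at most 10.7 CPM. The part of platelet RNA in the Selp values was not tested. Vwf, which forms Weibel-Palade bodies, was at 59.7 to 126 CPM at 1 h and at 85.7 to 189 CPM in normal rats. The 9 genes of Weibel-Palade bodies had a median log2 fold change of -0.00035 at 1 h and -0.24 at 4 h.

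Icam1, the counter-receptor of the leukocyte integrins LFA-1 and Mac-1, had the smallest p of the members. It was at 37.7, 52.8 and 37.3 CPM in normal rats, at 113, 500 and 318 CPM at 1 h, and at 106, 150.0 and 236 CPM at 4 h. Every ischemic rat was above every normal rat. The log2 fold change was 2.86 at 1 h (SE 0.54, unadjusted p = 0.000682, adjusted p = 0.141 in edgeR), and 73 of 15482 genes had a smaller p. At 4 h it was 1.95 (SE 0.53, unadjusted p = 0.00569, adjusted p = 0.194). In each of the 9 fits that left out 1 rat, the unadjusted p stayed under 0.05 at 1 h and at 4 h. The value ran from 2.33 to 3.26 at 1 h and from 1.59 to 2.16 at 4 h. With the nerve markers as a covariate it was 2.82 at 1 h (adjusted p = 0.245 in edgeR) and 1.93 at 4 h (adjusted p = 0.154).

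Vcam1, the ligand of the integrin VLA-4 on lymphocytes and monocytes, followed Icam1 closely. It was at 22.8, 37.9 and 29.0 CPM in normal rats, at 74.5, 388 and 367 CPM at 1 h, and at 56.1, 108 and 325 CPM at 4 h. Here too every ischemic rat was above every normal rat, with replicate 1 the lowest at both stages. The log2 fold change was 3.21 at 1 h (SE 0.80, unadjusted p = 0.00350, adjusted p = 0.210 in edgeR) and 2.45 at 4 h (SE 0.77, unadjusted p = 0.0125, adjusted p = 0.254). At 4 h it was 1.46 without replicate 3, with an unadjusted p of 0.0522.

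At 4 h 0 of the 7 members were called, where 0.0904% of all genes were, and DESeq2 called 2, Icam1 and Vcam1, with 3.91% of all genes. At an unadjusted p under 0.05, 2 of 7 were higher, against 5.07% of all genes. The same 2 did not overlap normal rats, against 7.93% of all genes in that direction. The median log2 fold change of the members at 4 h was 1.67, beside 0.027 over all genes. Both comparisons use the same normal rats. With all 3 groups tested together, 0 of the 7 members were called, where 0.0388% of all genes were, and 4 (Sele, Selp, Icam1 and Vcam1) had an unadjusted p under 0.05, against 11.4% of all genes. DESeq2 called 4 there, with 4.32% of all genes.

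The differences of Selp, Icam1 and Vcam1 between 4 h and 1 h all had intervals that included 0. They were -1.93 for Selp (95% interval -4.41 to 0.55), -0.92 for Icam1 (-2.09 to 0.26) and -0.76 for Vcam1 (-2.44 to 0.92) on the log2 scale. These intervals are wide, and a drop of several fold or no drop lies within them. Without replicate 3 at 4 h the value of Selp was -3.92 (adjusted p = 0.134) and that of Vcam1 was -1.75 (adjusted p = 0.210). That of Icam1 ran from -0.39 without replicate 2 of the 1 h group (adjusted p = 0.739) to -1.31 without replicate 1 of that group (unadjusted p = 0.0102, adjusted p = 0.960).

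To place these genes in the sequence of the genome, the RefSeq promoter table of build GRCr8 was searched. It held 5 of the 7 members and named neither Selp nor Icam2. The build behind the counts is not given in the sources used here. The 250 bases before the annotated start are shown for the 3 genes of the higher group that the table held, with capitals marking matches to an NF-kB motif on either strand (the NF-kB consensus, or the looser GGNNNTTCC). Sele lies at chr13:78936264-78936513 (plus strand), Icam1 at chr8:27829595-27829844 (plus strand) and Vcam1 at chr2:206742784-206743033 (minus strand).
Sele: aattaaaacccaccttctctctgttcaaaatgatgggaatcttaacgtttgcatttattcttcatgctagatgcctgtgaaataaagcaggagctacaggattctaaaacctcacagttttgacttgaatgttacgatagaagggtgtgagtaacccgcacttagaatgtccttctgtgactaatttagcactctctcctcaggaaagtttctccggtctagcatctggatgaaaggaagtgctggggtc
Icam1: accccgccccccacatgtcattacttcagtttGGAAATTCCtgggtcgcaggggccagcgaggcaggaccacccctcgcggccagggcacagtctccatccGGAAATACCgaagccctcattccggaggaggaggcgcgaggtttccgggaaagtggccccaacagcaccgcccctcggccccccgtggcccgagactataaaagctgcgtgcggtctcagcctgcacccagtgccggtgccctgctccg
Vcam1: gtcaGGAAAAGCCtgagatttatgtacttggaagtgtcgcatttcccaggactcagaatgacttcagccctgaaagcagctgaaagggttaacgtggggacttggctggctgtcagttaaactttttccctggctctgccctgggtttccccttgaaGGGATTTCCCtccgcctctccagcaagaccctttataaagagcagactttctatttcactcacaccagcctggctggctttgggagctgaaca

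In 300 bases (250 before the start and 50 after), the NF-kB consensus was found once, in Vcam1 at position -93, as GGGATTTCCC. It occurs in 4.18% of 33465 promoters of that length. The looser motif was found at 2 places each in Icam1 (positions -218 and -149) and Vcam1 (-246 and -93, the latter inside the consensus match) and at 1 place in Jam2 (-72), and 18.3% of promoters hold it. A TATAAA box was found in Icam1 at -53 and in Vcam1 at -60, where it overlaps a match on the other strand, and 14.2% of promoters hold one. The AP-1 site TGANTCA was found only in F11r, at -117, and 7.33% of promoters hold it. The window of Sele held none of these motifs. Only the window at the annotated start was searched, so sites outside it or at another start would not be seen. Matches describe the sequence and do not show that a factor binds.

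The members of resting endothelium gave a different picture. Icam2, a constitutive integrin ligand of endothelial cells and platelets, was at 44.0, 40.2 and 24.5 CPM in normal rats, at 26.7, 25.0 and 24.3 CPM at 1 h, and at 20.3, 25.5 and 29.2 CPM at 4 h. Normal replicate 3 was at the level of the ischemic rats, so the groups overlapped. The log2 fold change was -0.52 at 1 h (95% interval -1.08 to 0.051, adjusted p = 0.316 in edgeR) and -0.53 at 4 h (-1.10 to 0.033, adjusted p = 0.431). In a whole artery, fewer endothelial cells and less RNA per cell cannot be told apart. With the endothelium markers as a covariate the values were -0.18 and -0.12. Since these markers moved unevenly between groups (Sox18 and Cldn5 above), neither this covariate nor their mean level measures endothelial content alone. Relative to the mean log2 level of the 12 tested endothelium markers, a description chosen after the values were seen, Icam2 was at -1.49 ± 0.31 in normal rats, -1.46 ± 0.26 at 1 h and -1.31 ± 0.16 at 4 h (SD, n = 3 each).

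On that same scale the higher members were farther above normal rats at 1 h than their spread. Sele was at -7.15 ± 0.59 in normal rats, -2.77 ± 0.18 at 1 h and -5.78 ± 1.71 at 4 h, and Selp at -4.11 ± 0.36, -0.17 ± 1.63 and -2.27 ± 1.78, so that at 4 h the spread of both was about as large as their difference from normal rats. Icam1 was at -1.23 ± 0.71 in normal rats, 1.91 ± 0.91 at 1 h and 1.33 ± 0.40 at 4 h, and Vcam1 at -1.75 ± 0.89, 1.66 ± 1.19 and 1.03 ± 1.08 (SD, n = 3 each). With the endothelium markers as a covariate the log2 fold changes at 1 h were 4.55 for Sele, 4.82 for Selp, 3.10 for Icam1 and 3.42 for Vcam1, with adjusted p from 0.149 to 0.201 in edgeR. At 4 h that fit gave 3.14 for Selp (adjusted p = 0.481).

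F11r, the gene of JAM-A at tight junctions, was at 75.0, 46.2 and 41.3 CPM in normal rats, at 23.1, 45.0 and 37.0 CPM at 1 h, and at 25.6, 43.1 and 38.8 CPM at 4 h. Its log2 fold changes were -0.63 at 1 h (95% interval -1.40 to 0.14, adjusted p = 0.341 in edgeR) and -0.59 at 4 h (-1.36 to 0.17, adjusted p = 0.507). Jam2, whose product JAM-B sits at endothelial borders, was at 204, 86.1 and 80.2 CPM in normal rats, at 77.5, 121 and 89.3 CPM at 1 h, and at 41.8, 97.6 and 89.3 CPM at 4 h. Normal replicate 1 stood far above all other rats in Jam2 and was also the highest in F11r. Jam2 had log2 fold changes of -0.36 (-1.38 to 0.65, adjusted p = 0.669) and -0.69 (-1.71 to 0.32, adjusted p = 0.552). Without normal replicate 1, which had the largest sum of endothelium markers, they were 0.21 and -0.13, and those of F11r were -0.32 and -0.29.

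For these 3 genes the 4 h and 1 h groups were close. Differences on the log2 scale were -0.018 for Icam2 (95% interval -0.58 to 0.55), 0.033 for F11r (-0.73 to 0.80) and -0.33 for Jam2 (-1.34 to 0.68).

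Over the 9 libraries, the levels of the members varied together in the same sets. As a description, Pearson's r of log2 CPM was 0.97 between Icam1 and Vcam1, 0.90 between Selp and Vcam1, 0.86 between Selp and Icam1, 0.86 between Sele and Selp, 0.77 between Sele and Vcam1 and 0.74 between Sele and Icam1. Among Icam2, F11r and Jam2 it was 0.70 to 0.85, and between the sets it ran from -0.49 to 0.23. All values share the same 9 libraries, groups and scaling. Of 10441 named genes with a mean of at least 5 CPM, the 3 most like Vcam1 were Rnd1, B3galnt1 and Il6 (r = 0.98 to 0.99). Those most like Icam1 were Braf, Zc3h12a and Mt2A (0.98 each). Those most like Selp were Adamts4, Abl2 and Phlda1 (0.97 each), and those most like Sele were Dlc1, Ccdc25 and Ncoa7 (0.95 to 0.98). For Icam2 they were Unkl, Topbp1 and Tsc1 (0.92 to 0.96), for F11r Rin2 and Galnt15 were among them (0.97 and 0.96), and for Jam2 they were Tnfsf13, Eltd1 and Cd320 (0.98 to 1.00).

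To describe the rest of the adhesion cascade, 73 further genes in 8 lists were examined, of which 62 were tested. Of these, 0 were called at either stage by edgeR. At an unadjusted p under 0.05, 8 were higher and 2 lower at 1 h, and 5 higher and 4 lower at 4 h. Of all genes, 7.98% were higher and 8.67% lower at that level at 1 h, and 5.07% were higher and 7.35% lower at 4 h. The median log2 fold change over the 62 genes was 0.024 at 1 h and 0.026 at 4 h, close to that of all genes. Most of the cascade genes thus did not pass that level, as the plot of cascade genes shows. Some of those still had large log2 fold changes with large SE, named here after their values were seen. Fut7 was at 2.11 (SE 1.22) and Cd99l2 at 1.99 (SE 1.23) at 1 h, and Spn at -1.42 (SE 0.71) at 4 h.

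**Figure D3:**
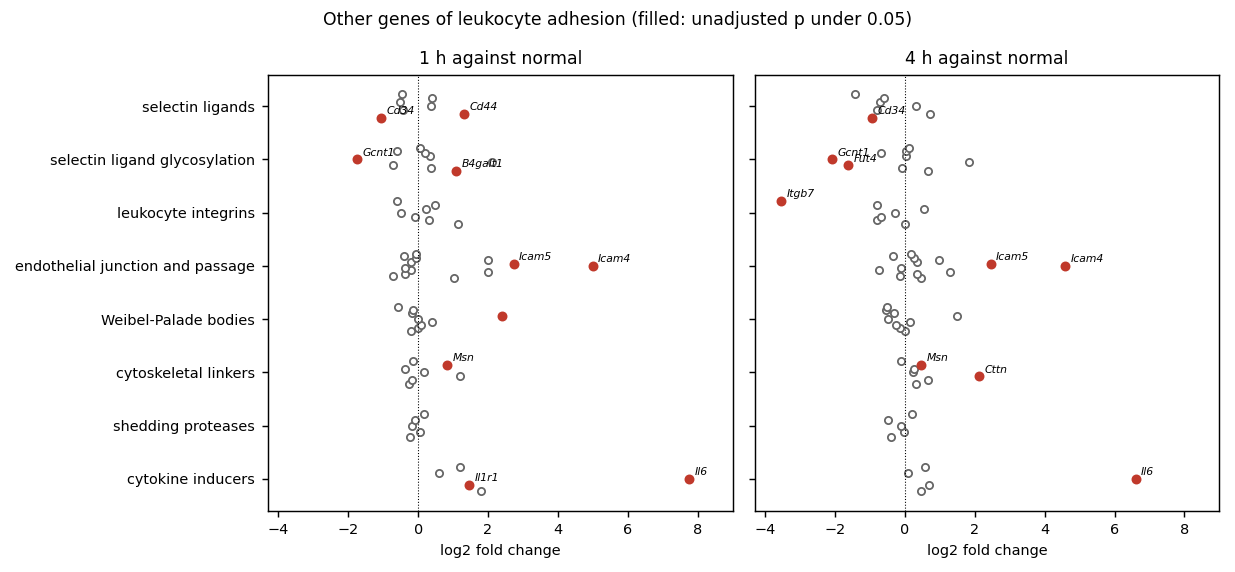
Log2 fold changes of the 62 tested genes of the adhesion cascade by role, at 1 h (left) and 4 h (right) against normal, with genes at an unadjusted p under 0.05 filled and most of them named. Il6 and Icam4 lie farthest to the right at both stages, and the 5 shedding proteases lie near 0.

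Of the cytokine genes, Il6, which codes for interleukin 6, had the largest value. It was at 0, 0.438 and 0.443 CPM in normal rats, at 2.61, 47.6 and 135 CPM at 1 h, and at 0.827, 2.16 and 80.9 CPM at 4 h. It was high in the same rats as Selp and Vcam1: replicates 2 and 3 at 1 h and replicate 3 at 4 h. Its log2 fold change was 7.75 at 1 h (SE 2.35, adjusted p = 0.232 in edgeR) and 6.61 at 4 h (SE 2.26, adjusted p = 0.291), against 0 to 6 counts per normal library. Il1r1, a receptor for interleukin 1, had a value of 1.45 at 1 h (SE 0.50, adjusted p = 0.261). Of the other inducers Tnf, Il1a, Ifng, Lta, Il4 and Il13 were too low to test, with Tnf at 0 to 3 counts per library.

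Of the selectin ligands, Cd44, a hyaluronan receptor that also binds selectins, was at 107, 39.3 and 77.8 CPM in normal rats and at 166, 196 and 198 CPM at 1 h (log2 fold change 1.32, SE 0.41, adjusted p = 0.234 in edgeR). Cd34, a sialomucin of endothelium and other cells, was lower in all ischemic rats. It was at 72.3, 52.1 and 40.5 CPM in normal rats, 17.5, 34.4 and 27.0 CPM at 1 h and 20.8, 30.0 and 35.5 CPM at 4 h, with log2 fold changes of -1.06 (adjusted p = 0.233) and -0.94 (adjusted p = 0.303). Podxl, another sialomucin, had values of -0.52 and -0.71. Of the enzymes that build selectin ligands, B4galt1 was at 1.08 at 1 h (adjusted p = 0.263), while Gcnt1 was at -1.75 and -2.09 (adjusted p = 0.297 and 0.321) and Fut4 at -1.63 at 4 h (adjusted p = 0.389). In normal replicate 1, Gcnt1 was at 60.4 CPM and Fut4 at 20.3 CPM, far above the other 8 libraries.

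Below the membrane, Msn, the gene of moesin, which ties Icam1 and Vcam1 to the cytoskeleton, was at 181, 202 and 187 CPM in normal rats and at 313, 372 and 322 CPM at 1 h. Its log2 fold change was 0.82 at 1 h (SE 0.21, adjusted p = 0.210 in edgeR) and 0.47 at 4 h (SE 0.20, adjusted p = 0.401). Cttn, the gene of cortactin, was at 2.12 at 4 h on the log2 scale (SE 0.57, adjusted p = 0.194). Of the Weibel-Palade genes, Stx3, a membrane fusion protein, had values of 0.0080 and -0.50. Among the proteases that shed adhesion molecules, Adam17 was at -0.16 and -0.12, Adam10 at -0.22 and -0.39, Adam8 at -0.10 and -0.48, and Adam9 at 0.16 and 0.20.

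Icam4 and Icam5, which follow Icam1 on the chromosome in RefSeq, were also higher. Icam4 had 5, 0 and 1 counts in normal rats, 30, 101 and 66 counts at 1 h and 26, 26 and 81 counts at 4 h, with log2 fold changes of 4.99 (SE 0.96, adjusted p = 0.145 in edgeR) and 4.59 (SE 0.95, adjusted p = 0.111). Icam5 had values of 2.73 (adjusted p = 0.232) and 2.45 (adjusted p = 0.271). Whether reads of Icam1 were counted for its neighbours was not tested, since the counting program and annotation are not given in the sources used here.

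The leukocyte side of the cascade was then examined in the same libraries. Of the 8 leukocyte integrin genes 7 were tested, and 0 of them passed an unadjusted p of 0.05 at 1 h, against 16.7% of all genes in either direction. At 4 h Itgb7 alone did (log2 fold change -3.54, adjusted p = 0.241 in edgeR), against 12.4% of all genes. It had 46, 11 and 5 counts in normal rats and 1 or 2 counts per library at 4 h. Itgam, a chain of Mac-1, was at 0.579 to 2.02 CPM over the 9 libraries, and Itgb2, the chain shared by LFA-1 and Mac-1, at 0.413 to 7.68 CPM. Itga4, a chain of VLA-4, was at 5.26, 0.584 and 1.33 CPM in normal rats and at 3.14, 3.28 and 9.52 CPM at 1 h (log2 fold change 1.14, SE 0.90, adjusted p = 0.497).

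Of the 12 neutrophil markers 3 were tested, and Elane, Fpr1 and Fpr2 had no count in any library, which allows up to 0.168 to 0.249 CPM at 3 counts. The 3 tested ones (Lcn2, Mpo and S100a9) had a median log2 fold change of 2.74 at 1 h and 1.48 at 4 h, and 1 of them, Lcn2, had an unadjusted p under 0.05 at 1 h. S100a9 had 1, 3 and 0 counts in the normal libraries, 12, 7 and 11 counts in the 1 h libraries and 0, 12 and 12 counts in the 4 h libraries. S100a8 and Mmp8 had 0 counts in each normal rat, and at 1 h S100a8 had 3, 2 and 3 counts and Mmp8 had 1, 4 and 6. All 3 of these low genes were thus above the normal rats in every rat at 1 h, and so was Lcn2. Of all genes tested 12.8% were higher in this way, but S100a8 and Mmp8 were too low to test and are not among them. Mpo, Camp, Csf3r, Cxcr2 and Ngp overlapped the normal rats at 1 h. Camp had 1, 0 and 9 counts in normal rats and 0, 0 and 1 counts at 1 h. S100a9, S100a8, Mmp8, Camp, Csf3r, Cxcr2 and Ngp are named here after their values were seen. The summed level of the 12 markers was 7.09 to 13.1 CPM in normal rats, 18.7 to 82.4 CPM at 1 h and 3.80 to 52.4 CPM at 4 h. Most of this was Lcn2, which other stressed cells make too. Lcn2 was at 5.91 to 9.91 CPM in normal rats, at 12.0, 67.3 and 77.8 CPM at 1 h and at 2.81 to 47.7 CPM at 4 h. It was thus highest in the same 3 rats as Selp and Il6. Without Lcn2 the sum over the remaining 11 genes was 1.18 to 3.19 CPM in normal rats, 2.07 to 6.69 CPM at 1 h and 0.992 to 4.75 CPM at 4 h, a split chosen after the values were seen. The next highest marker was Mpo, at up to 5.02 CPM. The 10 macrophage markers, led by Lyz2 and C1qc, summed to 62.8 to 252 CPM in normal rats, 125 to 254 CPM at 1 h and 49.0 to 143 CPM at 4 h. The 10 lymphocyte markers, with Cd79a at no count, had summed levels of 26.9 CPM in normal replicate 1, of 41.0 CPM in the 1 h replicate 3 and of 1.32 to 3.95 CPM elsewhere. The heat map of rats sets these sums beside the members.

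**Figure D4:**
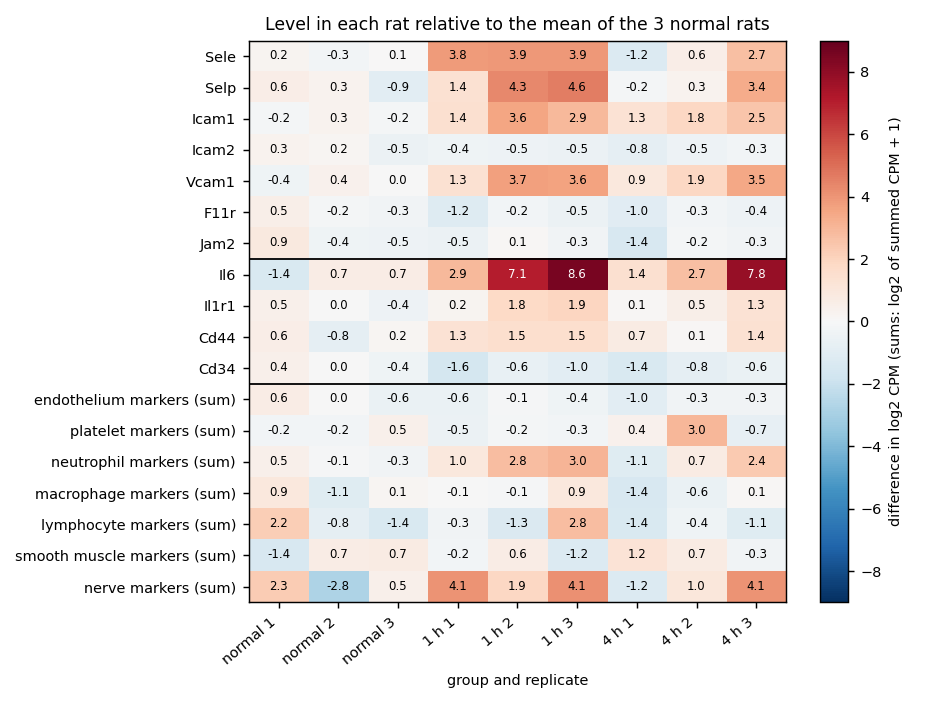
Level of each gene, or of the summed markers of a cell type, in each rat minus the mean of the 3 normal rats, in log2 CPM (red higher, blue lower). Replicates 2 and 3 at 1 h and replicate 3 at 4 h are the darkest red for Selp, Icam1, Vcam1 and Il6, while the endothelium sum lies at 682 to 1235 CPM in the 6 ischemic rats.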

How the data were processed

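Whole-tissue RNA of 9 SMAs was sequenced. By the series description each group had 3 rats, so 9 separate rats were assumed. The study's methods name 3 individuals for the 3 conditions, which could be read as repeated sampling without independent libraries. They also state that rats were killed at the end of ischemia before the artery was taken, so an ischemic rat could be sampled only once. The authors deposited raw counts per gene symbol. HISAT2 is named in the submitters' processing notes, while the counting program, build, annotation and strand setting are not given in the sources used here. The study's methods describe microarrays for these samples, whereas the table holds whole-number counts. Genes were filtered with filterByExpr and scaled by TMM, and the quasi-likelihood F-test of edgeR 4.0.16 in R 4.3.3 was run on all 9 libraries in a single fit with group as the only term. P-values were adjusted by Benjamini-Hochberg over all 15482 genes tested. Calls needed an adjusted p under 0.05 together with a fold change over 1.5. SE is the log2 fold change divided by the square root of F, and 95% intervals use the fit's degrees of freedom. Log2 CPM values use a prior count of 2. DESeq2 1.42.0, limma-voom (limma 3.58.1) and other scalings, filters, covariates and omissions were alternatives.

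The members and lists were chosen with earlier results of these data known. The rule named all members, any called gene of each cascade list and its 2 genes of smallest p at each stage, the 2 highest genes of each marker list with those at 0 throughout, and the 3 genes most correlated with each member. Nectin2 and the macrophage marker Adgre1 were matched by older symbols, and Pvr was not matched. No library copied another (lowest chi-square per degree of freedom 29.9). Tests were tried on simulated counts first. A few genes that this rule selects are not reported here.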

Additional observations from a re-analysis of the deposited data

How the results depend on the processing

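Of 399 comparisons of a member's log2 fold change with an alternative, 377 kept their direction and call, 7 gained a call and 15 changed sign. DESeq2 called 4 members at 1 h, 2 at 4 h and 4 with the groups together, where all genes gave 702 and 606 calls at 1 h and 4 h against 9 and 14, and between 4 h and 1 h it put 2 members at an unadjusted p under 0.05. The fit of only the groups compared called 1 member at 1 h (Sele, adjusted p = 0.0364), with 4 genes in all. The cause of these gains was not tested. With library size only, F11r between 4 h and 1 h was -0.15. With endothelium markers as a covariate F11r was 0.022 at 4 h, Jam2 0.37 at 1 h and 0.22 at 4 h, and Icam2 between 4 h and 1 h 0.068, which was 0.071 with nerve markers. Leaving out 1 rat gave 0 called members in every comparison. Members at an unadjusted p under 0.05 were then 4 to 5 at 1 h, 2 to 3 at 4 h, 0 to 3 between 4 h and 1 h (0 if replicate 2 of the 4 h group was left out, 3 if replicate 1 of the 1 h group or replicate 3 of the 4 h group was) and 3 to 4 with the groups together. The values ran from -0.079 to 2.19 for Sele and -0.054 to 2.41 for Selp at 4 h, from -0.60 to 0.21 for Jam2 at 1 h, and between 4 h and 1 h from -0.19 to 0.26 for F11r and -0.15 to 0.088 for Icam2. The replicate numbers showed no clear pairing of the rats (4 of 9 correlations of deviations over 0.1, 4 of 9 libraries closest to their own number). These correlations ran from -0.65 to 0.66, and with 3 rats per group the check cannot exclude a batch shared by number. With a replicate block 0 members were called, 4 were at an unadjusted p under 0.05 at 1 h, 2 at 4 h and 1 between the stages, and 7 genes in all were called at 1 h. Low depth limits Sele most, with 2 counts in its lowest library.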

Other observations

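Genes beside Icam1 were set against it in the same libraries, after their values were seen. Icam4 had 0.743, 0 and 0.198 counts per 100 counts of Icam1 in normal rats. At 1 h it had 1.78, 1.35 and 1.28, and at 4 h 2.03, 1.44 and 2.26. Icam5 had 0.198 to 0.892 in normal rats, 0.468 to 0.713 at 1 h and 0.546 to 1.09 at 4 h. The ratio of Icam5 to Icam1 thus overlapped between the 3 groups, while the ratio of Icam4 was higher in every ischemic rat than in every normal rat. The normal ratios are imprecise, since they rest on 6, 4 and 1 counts of Icam5 and 5, 0 and 1 counts of Icam4. The part of shared reads in these counts was not tested.

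Madcam1, an integrin ligand of gut and lymphoid vessels, was at 1.90 to 13.7 CPM in normal rats, 9.97 to 39.8 CPM at 1 h and 3.14 to 20.9 CPM at 4 h, with a log2 fold change of 1.99 at 1 h (unadjusted p = 0.0552 in edgeR).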
